A study of Mus musculus with 18 samples.

Results

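The genes described here are the histone genes of the mouse that are named for the histone clusters, chosen from the counted genes by symbol. Symbols starting with Hist1h, Hist2h, Hist3h or Hist4, or their newer forms (H1f, H2ac, H2bc, H3c, H4c), named 74 of the 55487 genes in the table. Of these, 11 had at least 10 counts in 9 or more of the 18 samples and are called the members below, while 63 did not reach that level. The members comprised 5 linker histone genes (H1f0, Hist1h1c, Hist1h1d, Hist1h1e and H1fx), 1 H2A gene (Hist3h2a), 4 H2B genes (Hist1h2bc, Hist2h2be, Hist1h2bh and Hist1h2be) and 1 H4 gene (Hist1h4i). None of the 12 H3 genes was a member. Of the members, 7 lie on chromosome 13, Hist2h2be on chromosome 3 and Hist3h2a on chromosome 11. H1f0 on chromosome 15 and H1fx on chromosome 6 carry the H1f symbol but stand outside the clusters.

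RNA was sequenced from small intestinal organoids, 3-dimensional cultures of crypt epithelium, of female wild-type C57BL/6 mice. The methods give an age for purchased mice, without saying whether the organoids came from them. After 4 passages the organoids received 1 μM norepinephrine (5 samples), its vehicle HCl (4 samples), 1 μM UK14,304, an agonist of α2-adrenergic receptors (5 samples), or its vehicle DMSO (4 samples), each for 4 days. The sample names carry m1 to m5, read here as mice 1 to 5 although no label spells this out, and m5 has agonist samples only. The design asks whether adrenergic stimulation of the epithelium itself changes its gene expression. Counts per sample ranged from 21.87 to 27.85 M. Epithelial markers were high in all libraries (Epcam 1370 to 1490 CPM, counts scaled to a common library size), whereas Col1a1 and Pdgfra of fibroblasts stayed at 0.216 CPM or less, Ptprc of leukocytes at 1.36 CPM or less and Pecam1 of endothelium at 0.991 CPM or less. In such bulk samples, fewer cells that express a gene and less of its RNA per cell cannot be told apart.

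Core histones (H2A, H2B, H3 and H4) form the protein spool of the nucleosome, and linker histones (H1) bind the DNA where it enters and leaves that spool. Most genes of the clusters are replication-dependent: they are transcribed in S phase, when new chromatin is assembled, and their mRNA is cut just after a stem-loop in its 3′ UTR and carries no poly(A) tail. Some histone genes can also make longer, polyadenylated mRNA, and H1f0, which encodes the linker histone H1.0 and is known for its accumulation in cells that leave the cell cycle, makes polyadenylated mRNA. The libraries were prepared with a kit that captures poly(A) mRNA, and the annotated ends of the transcripts are therefore described next. The part of these ends in which histone genes were counted was not tested.

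A stem-loop of 16 bases (a 6-base stem starting with GG, a 4-base loop of the form TNTN, and the exact complement of the stem) was searched on the sense strand of the GENCODE M21 transcripts (GRCm38). It was found after the stop codon in 46 of the 74 genes, 21 to 58 bases past the stop. Anywhere in a coding transcript it occurred in 159 of 21901 protein-coding genes (0.726%), these 46 included. The sites below are shown because they are almost the same in members and in genes that were hardly counted. The stem-loop is in capitals, written as DNA in the sense of the transcript, with 5 bases on either side.
Hist1h1c: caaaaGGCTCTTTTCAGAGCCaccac
Hist1h1e: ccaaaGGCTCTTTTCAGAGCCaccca
Hist3h2a: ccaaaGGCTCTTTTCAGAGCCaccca
Hist1h4i: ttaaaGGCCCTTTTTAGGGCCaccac
Hist1h2ab: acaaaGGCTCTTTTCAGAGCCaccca
Hist1h3b: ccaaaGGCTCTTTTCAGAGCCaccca
Hist1h4b: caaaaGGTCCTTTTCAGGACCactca

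The first 4 of these genes are members and the last 3 are not. All 7 sites lie in the 3′ UTR of a single-exon transcript, that of Hist1h1c at chr13:23739507-23739532 (plus strand), Hist1h1e at chr13:23621777-23621802 (minus), Hist3h2a at chr11:58955167-58955192 (plus) and Hist1h4i at chr13:22040961-22040986 (minus). Those of Hist1h2ab, Hist1h3b and Hist1h4b are at chr13:23751567-23751592, chr13:23752815-23752840 and chr13:23757361-23757386, all on the plus strand. The form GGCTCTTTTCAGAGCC occurred in 26 genes, among them 6 of the 7 members with a stem-loop. The H4 genes carried other stems, and 10 genes had a stem beginning with GGCC, Hist1h4i among them. No exact stem-loop was found after the stop in the models of H1f0, H1fx, Hist1h2bc and Hist2h2be.

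The transcript models of the members were long past the stop codon. All 11 models ran over 300 bases past it (range 369 to 4931, median 1209), against 14 of the 60 genes below the filter that have an annotated stop codon (23.3%, median 87 bases). For the stem-loop genes, the 7 members' models went on for 330 to 4884 bases after the stem-loop, whereas 22 of the other 39 ended within 60 bases of it. Hist1h1c went on for 840 bases, Hist1h2ab for 11 and Hist1h3b for 51. The hexamer AATAAA or ATTAAA, the usual polyadenylation signals, followed the stem-loop (or the stop, where there was none) in 10 of the 11 members, with Hist1h1e as the exception, and in 15 of the 60 others. In 7 members it lay within 50 bases of the model's end, as in H1f0, H1fx, Hist1h1c, Hist2h2be and Hist1h4i. These are properties of the annotation and not of the reads, whose place within each gene is not in the counts. A longer model also collects more reads, so that the members' number past the filter and this length are not independent.

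**Figure D1:**
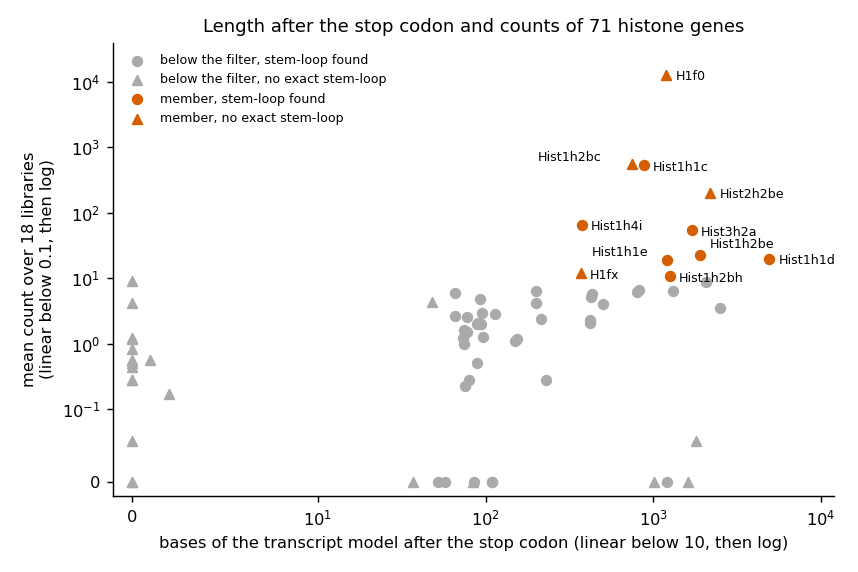
Each point is 1 of the 71 histone genes with an annotated stop codon; the x axis gives the bases of its longest transcript model after the stop and the y axis its mean count over 18 libraries, both linear near 0 and log beyond. The 11 members (orange, labelled) all sit beyond 300 bases. The genes below the filter had mean counts of 9.06 or less at every model length, which the count filter itself favours.

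The members differed widely in level. H1f0 (ENSMUSG00000096210, a single exon at chr15:79028450-79030504) was counted 12900 times per library on average and made up 88.4 to 90.7% of the members' summed CPM. Per kilobase of exon its mean was 254 CPM, and 1.37% of the 15247 genes tested had a higher CPM. Hist1h2bc followed with 19.4 and Hist1h1c with 13.8 CPM per kb, then Hist1h4i with 3.61, Hist2h2be with 3.14 and Hist3h2a with 1.01. Hist1h1e (0.398), H1fx (0.389), Hist1h2bh (0.260), Hist1h2be (0.204) and Hist1h1d (0.108) came last, with mean counts of 19.33, 11.83, 10.72, 22.39 and 19.94 per library. The order among these last 5 rests on the annotated lengths, which reach 7425 bases for Hist1h1d and 4446 for Hist1h2be. All 11 together were at 549 to 620 CPM, with means of 585 ± 24.2 (SD, n = 4) with HCl vehicle, 581 ± 18.5 (n = 5) with norepinephrine, 587 ± 26.5 (n = 4) with DMSO vehicle and 580 ± 17.2 (n = 5) with UK14,304.

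Some of these values are uncertain because of neighbours and near copies. Reads were counted without regard to strand, and reads that mapped to several places or to several genes were not counted. Of all 50-base windows of a member's transcripts, 0.0% (Hist2h2be) to 32.0% (Hist1h1e) also occurred in another gene's transcript, with a median of 16.3%. For the genes below the filter the median was 59.4%, and in 5 of them every window was shared. The spans of Hist1h1e and Hist1h2be share 496 bases on the same strand, and Hist3h2a lies wholly within the span of Trim17 on the same strand. Opposite to H1f0, Gm49544 shares 163 bases of its span, and opposite to H1fx, Gm5577 shares 755. Where exons of such a pair overlap, reads were counted for neither gene. How much of the shared spans is exon of both genes was not computed.

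With norepinephrine against HCl vehicle, no member passed the test. By the quasi-likelihood test of edgeR, with p-values adjusted by Benjamini-Hochberg across 15247 genes, 0 of the 11 members passed an adjusted p of 0.05, as did 0% of all genes. At an unadjusted p under 0.05 there were 0 members, against 6.18% of all genes. DESeq2 called 0 members without the block (0% of all genes) and 0 with it (0.211%). The fitted log2 fold change was above 0 for 8 members and below 0 for 3 (median 0.11, all genes −0.01), and above 0 for 47.6% of all genes. Over the mice, the members' median log2 difference had an SD of 0.12. With the mouse as a replicate block, 0 members passed against 0.105% of all genes. No member's norepinephrine samples lay wholly above or below its vehicle samples, which happened for 1.42% of all genes (0.643% wholly above).

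With UK14,304 against DMSO vehicle, 1 member stood out. Hist1h1c (ENSMUSG00000036181, a single exon at chr13:23738808-23740367), which encodes the linker histone H1.2, was 1.23-fold higher (log2 fold change 0.30 ± 0.0691 SE), and higher in 4 of 4 mice. It did not pass the test among all genes (edgeR adjusted p = 0.119), nor did any other member, and 0.0394% of all genes passed. Once the mouse was included as a replicate block, Hist1h1c passed (1.20-fold, log2 0.26 ± 0.0595 SE, edgeR adjusted p = 0.0325) as the only member called, 1 of 11, against 1.22% of all genes. At an unadjusted p under 0.05 without the block, the count was 1 of 11 against 11.2% of all genes, and DESeq2 called this 1 gene both without the block (adjusted p = 0.0126, with 0.314% of all genes called) and with it (adjusted p = 0.00924, 1.96%). Over all members the median log2 fold change was 0.05 (7 above 0 and 4 below, median of all genes 0.00), and 48.7% of all genes were above 0. The members' median log2 difference had an SD of 0.132 over the mice.

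The values of Hist1h1c show the difference directly. With DMSO vehicle, mice 1 to 4 gave 20.6, 22.2, 19.9 and 19.3 CPM. With UK14,304, mice 1 to 5 gave 24.2, 25.5, 25.6, 23.5 and 27.7 CPM. Every UK14,304 sample was above every DMSO sample, which held in this direction for 1.72% of all genes (3.51% in either direction), and no other member showed it. With HCl vehicle, Hist1h1c was at 19.8, 21.2, 19.4 and 21.5 CPM in mice 1 to 4. With norepinephrine, it was at 18.6, 18.4, 17.2, 20.2 and 21.7 CPM in mice 1 to 5. These groups overlapped, through the samples of mice 4 and 5, although in each of the 4 mice with both samples norepinephrine was lower (log2 −0.09 ± 0.0700 SE, edgeR adjusted p = 0.734; with the block −0.13, adjusted p = 0.589). In counts, the 5 UK14,304 libraries had 620 to 711 reads on Hist1h1c, and the 13 others had 400 to 557.

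**Figure D2:**
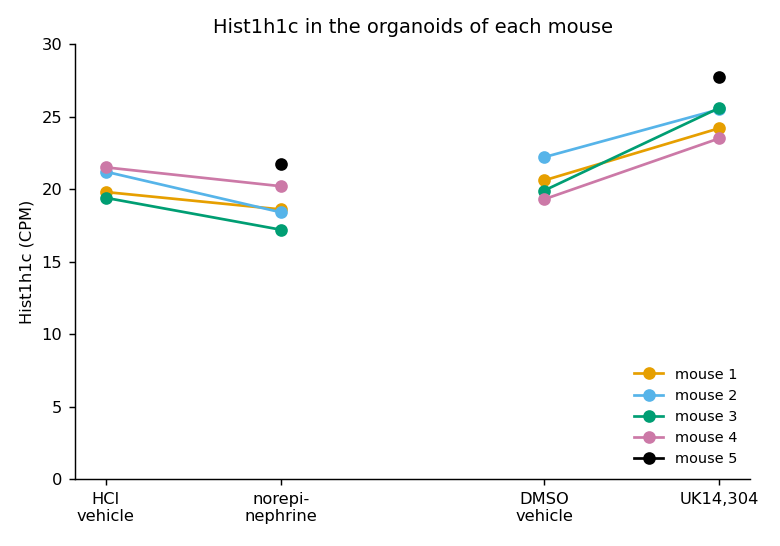
Hist1h1c in CPM (y axis, from 0) in each sample, with lines joining vehicle and agonist samples of the same mouse; mouse 5 has no vehicle sample. All 4 lines go down from HCl to norepinephrine and up from DMSO to UK14,304, where the 5 points sit between 23.5 and 27.7 CPM.

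The call on Hist1h1c with the block rested on most of the libraries that it compares. Leaving out 1 sample at a time, the log2 fold change stayed between 0.23 and 0.30 and the adjusted p passed in 11 of 18 cases. It was missed without DMSO vehicle of mouse 1 (adjusted p = 0.0661), mouse 2 (0.0562), mouse 3 (0.0877) or mouse 4 (0.136), without UK14,304 of mouse 2 (0.0910) or mouse 3 (0.144), and without norepinephrine of mouse 1 (0.0529), all from edgeR. Without the block, no such omission made it pass (0.083 to 0.354).

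The difference between both agonist effects was tested in the same model. For Hist1h1c, the effect of UK14,304 exceeded that of norepinephrine by 0.40 on the log2 scale (2 SE interval 0.20 to 0.59), and did so in 4 of 4 mice. This did not pass among all genes (edgeR unadjusted p = 0.000642, adjusted p = 1.0; with the block 0.000148 and 0.563). Hist3h2a also had the larger UK14,304 effect in 4 of 4 mice, at a fitted log2 difference of 0.00. The share of all genes with such a count of mice was not computed. No member passed (0 of 11), and 0% of all genes passed without the block, as with it. At an unadjusted p under 0.05, Hist1h1c was the 1 member, against 1.51% of all genes. DESeq2 called 0 members without the block (0% of all genes) and 0 with it (0.00656%).

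Among the other linker histones, H1f0 was measured most precisely. Its CPM was 539, 536, 488 and 540 with HCl vehicle and 527, 540, 493, 533 and 523 with norepinephrine. With DMSO vehicle it was 518, 561, 496 and 533, and with UK14,304 it was 520, 536, 489, 513 and 521. Mouse 3 was the lowest in each group, and the groups overlapped fully. The 2 SE intervals of its log2 fold change ran from −0.10 to 0.08 with norepinephrine and from −0.12 to 0.06 with UK14,304. Without H1f0, the other 10 members summed to 57.9 to 61.6 CPM with DMSO vehicle and to 62.8 to 66.9 CPM with UK14,304, without overlap. Without Hist1h1c as well, the remaining 9 summed to 37.2 to 41.6 CPM with DMSO vehicle and 37.2 to 41.2 CPM with UK14,304, fully overlapping, so that the separation lay in Hist1h1c. With HCl vehicle the sum of the 10 was 57.9 to 60.9 CPM and with norepinephrine 54.7 to 62.7.

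H1fx, which encodes the linker histone H1.10, had 2 to 20 counts per library. It was at 0.321 ± 0.228 CPM (SD, n = 4) with HCl vehicle, 0.449 ± 0.160 (n = 5) with norepinephrine, 0.489 ± 0.128 (n = 4) with DMSO vehicle and 0.606 ± 0.121 (n = 5) with UK14,304. The groups overlapped in both comparisons. Its log2 fold changes, 0.48 ± 0.392 SE and 0.32 ± 0.342 SE, were the highest positive values of both comparisons without the block, and within 2 SE of 0. Leaving out 1 sample moved them between 0.14 and 0.93 with norepinephrine and between 0.13 and 0.50 with UK14,304, and both turned negative in the libraries with little ribosomal RNA, which are described next.

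The counts of 2 linker histone members moved with the ribosomal RNA left in the libraries. CT010467.1, a ribosomal RNA gene, took 0.313 to 0.619% of the counts in 11 libraries and 1.83 to 3.06% in the other 7. The 7 were HCl vehicle of mouse 4, norepinephrine of mice 4 and 5, DMSO vehicle of mice 1 to 3, and UK14,304 of mouse 1, so the share was uneven between DMSO vehicle (3 of 4) and UK14,304 (1 of 5). Hist1h1e, which encodes H1.4, had 25 to 46 counts in these 7 libraries and 2 to 21 in the other 11, without overlap. Hist1h1d, which encodes H1.3, had 16 to 41 and 5 to 29. The same pattern was clearest in Hist1h1b, the gene of H1.5, which just missed the filter with 7 samples at 10 counts or more: it had 12 to 24 counts in the 7 libraries and 1 to 8 in the others. Over the 18 libraries, which share 5 mice, Pearson's r between log2 CPM and the log2 ribosomal share was 0.909 for Hist1h1b, 0.810 for Hist1h1e and 0.659 for Hist1h1d, and 0.0688 for Hist1h1c and −0.106 for H1f0. How many of all genes separate or correlate as well over these libraries was not computed. The pattern is therefore not shown to be particular to these linker histone genes. The part of the ribosomal RNA, or of what left it there, in these counts was not tested.

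**Figure D3:**
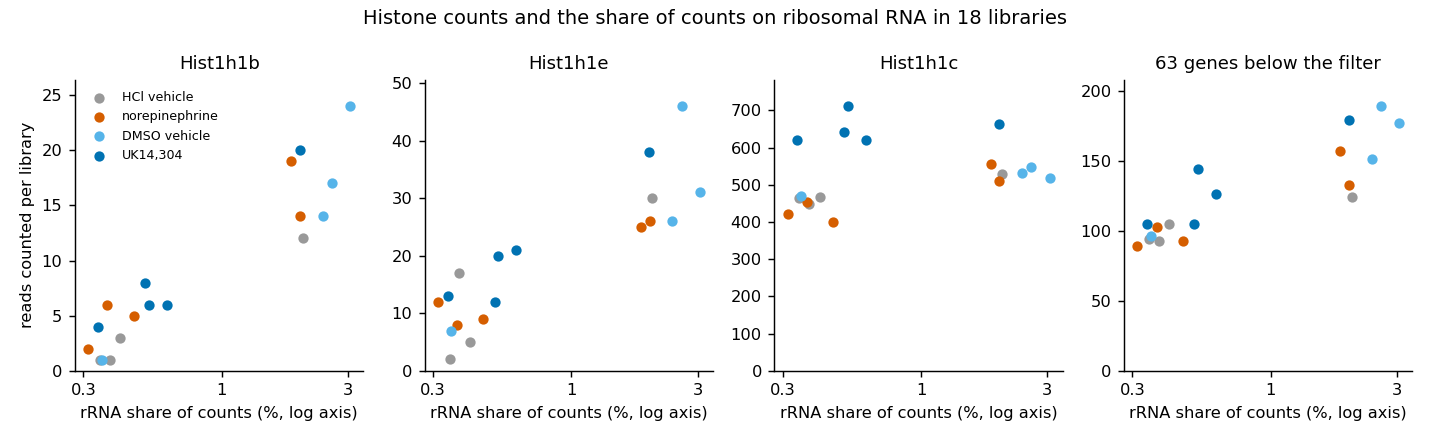
Reads counted per library (y axis, from 0) for Hist1h1b, Hist1h1e, Hist1h1c and the sum of the 63 genes below the filter, against the share of counts on ribosomal RNA (x axis, log scale), with 1 point per library coloured by group. Hist1h1b and Hist1h1e are higher in each of the 7 libraries with over 1% ribosomal RNA and the sum in most of them, while Hist1h1c is highest in the 5 UK14,304 libraries at either share.

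For Hist1h1e and Hist1h1d, the fitted difference between UK14,304 and DMSO vehicle had the other sign when that share was a covariate, and neither passed. Hist1h1e was at 1.01, 1.86, 1.20 and 0.288 CPM with DMSO vehicle and at 1.39, 0.718, 0.867, 0.493 and 0.519 CPM with UK14,304. The 4 vehicle samples span the range of the 5 agonist samples, and the lowest is the only one with little ribosomal RNA. Its log2 fold change of −0.44 ± 0.517 SE became 0.49 with the ribosomal share as a covariate, and that of Hist1h1d went from −0.21 ± 0.473 SE to 0.54. For Hist1h1c the value with the covariate was 0.36 without the block (edgeR adjusted p = 0.139) and 0.32 with it (adjusted p = 0.0234). In the 11 libraries with little ribosomal RNA, a split made after seeing the data that leaves 1 DMSO sample, it was 0.41 without the block (edgeR adjusted p = 0.805) and 0.29 with it (adjusted p = 0.0533). With 1 vehicle sample this split does not show whether the difference held at a low share.

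The core histone members showed no difference that passed, in either comparison. Hist1h2bc, the most abundant H2B gene, was at 21.8 to 25.4 CPM with HCl vehicle and at 19.8 to 23.5 CPM with norepinephrine. The norepinephrine values overlapped with those of the vehicle and were lower in 3 of 4 mice (log2 −0.11 ± 0.0701 SE, the lowest of the 11). With DMSO vehicle it was at 22.8, 20.7, 24.1 and 23.3 CPM and with UK14,304 at 22.9, 21.3, 20.0, 23.9 and 23.9 CPM, fully overlapping (log2 −0.02 ± 0.0697 SE). Hist2h2be, which encodes an H2B protein of the cluster on chromosome 3, was at 8.37 ± 0.602 CPM (SD, n = 4) with HCl vehicle, 8.42 ± 0.744 (n = 5) with norepinephrine, 7.87 ± 0.682 (n = 4) with DMSO vehicle and 8.16 ± 0.837 (n = 5) with UK14,304. Its log2 fold changes were 0.01 ± 0.0932 SE and 0.05 ± 0.0929 SE.

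Hist3h2a, the only H2A member, had log2 fold changes of like size with both agonists. It was at 1.92 ± 0.363 CPM (SD, n = 4) with HCl vehicle and at 2.29 ± 0.526 CPM (n = 5) with norepinephrine. With DMSO vehicle it was at 1.86, 1.82, 2.16 and 2.18 CPM and with UK14,304 at 2.27, 1.97, 2.81, 2.77 and 2.20 CPM. Norepinephrine was higher in 3 of 4 mice and UK14,304 in 4 of 4, with overlap in both. Without the block, the log2 fold change was 0.26 for each agonist (SE 0.179 and 0.175, edgeR adjusted p = 0.725 and 0.553). Hist1h4i, the H4 member, was at 2.47 ± 0.322 CPM (SD, n = 4) with HCl vehicle, 2.63 ± 0.276 (n = 5) with norepinephrine, 2.58 ± 0.260 (n = 4) with DMSO vehicle and 2.78 ± 0.175 (n = 5) with UK14,304, and both log2 fold changes were 0.10 (SE 0.125 and 0.122).

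Hist1h2be and Hist1h2bh, the H2B genes with 16 to 31 and 5 to 15 counts per library, had groups that overlapped in both comparisons. For Hist1h2be the log2 fold change was 0.11 ± 0.205 SE with norepinephrine and 0.25 ± 0.209 SE with UK14,304, and for Hist1h2bh it was 0.12 ± 0.335 SE and 0.02 ± 0.324 SE.

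**Figure D4:**
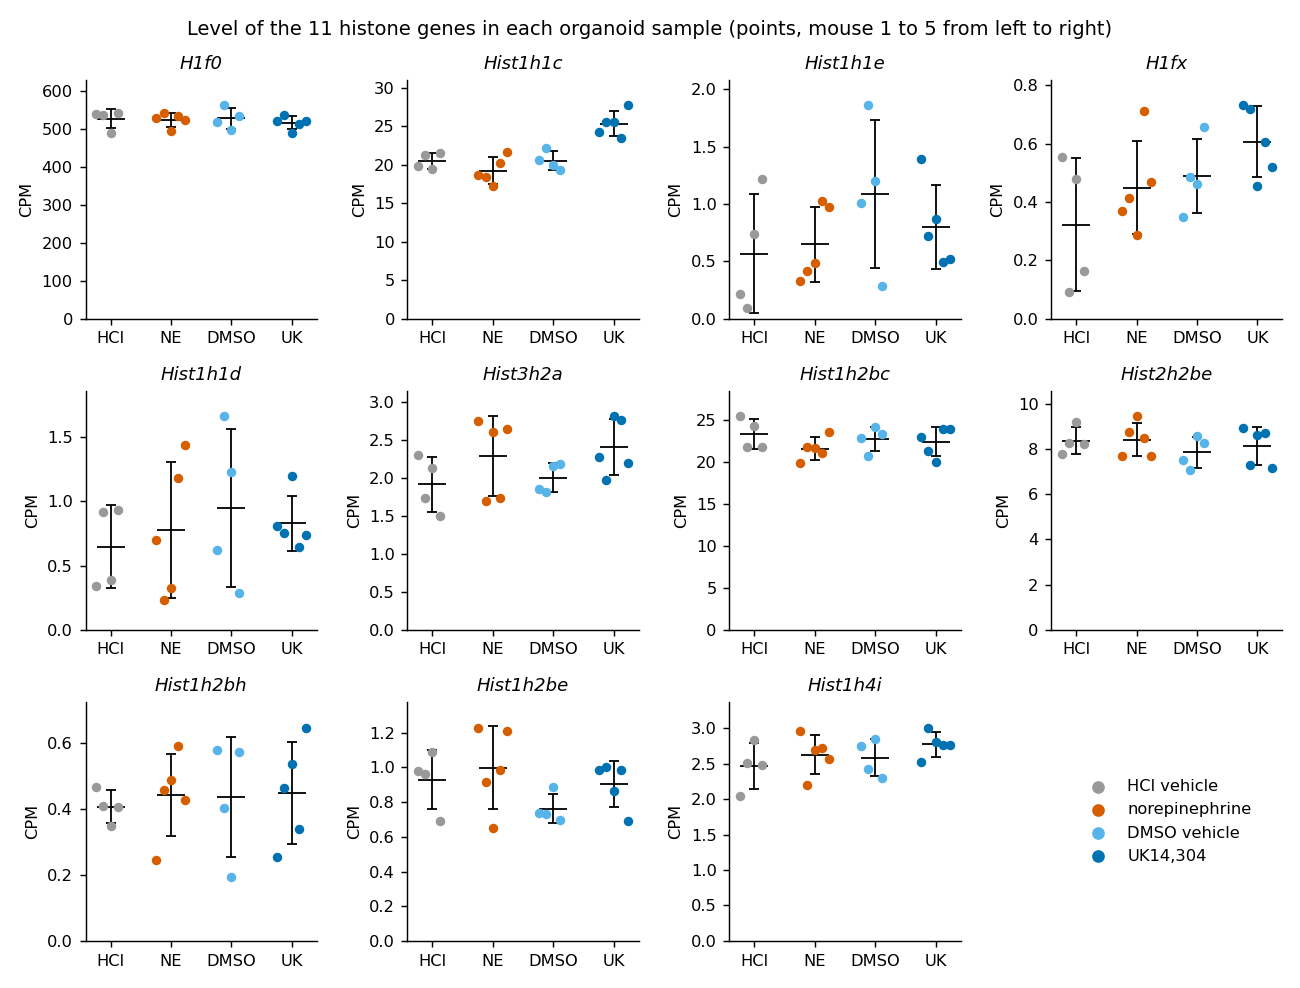
CPM of each member (y axes from 0, scaled per gene) in the 18 samples, with HCl vehicle, norepinephrine (NE), DMSO vehicle and UK14,304 (UK) on the x axis; points are samples, and bars give the mean and SD. Hist1h1c is the only member whose UK14,304 samples all lie above its DMSO samples.

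**Figure D5:**
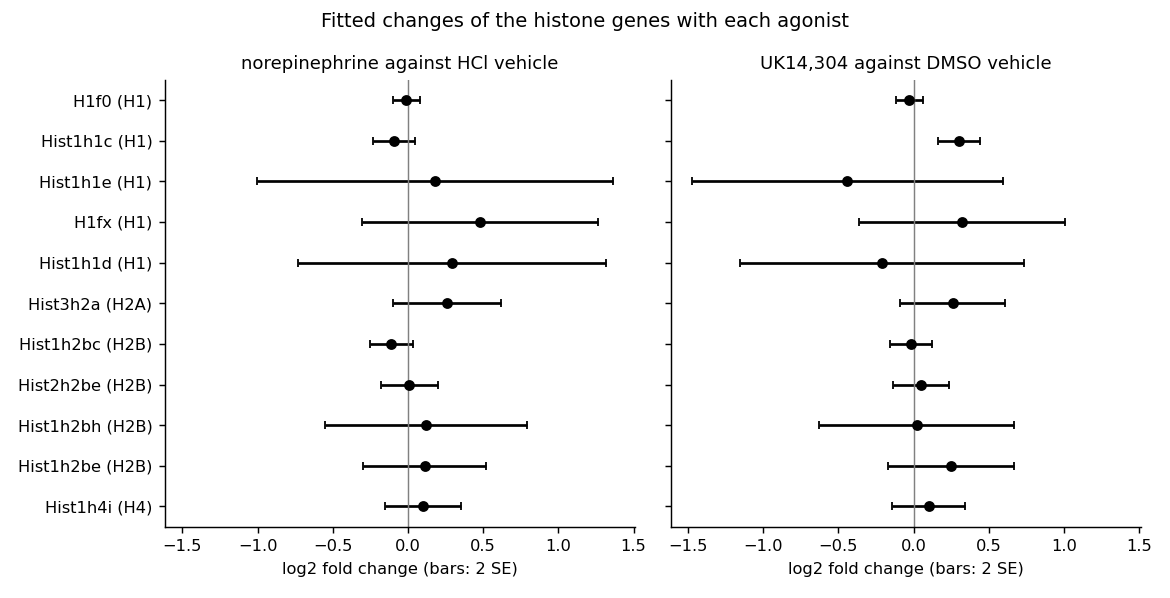
Fitted log2 fold change (x axis) of each member with its histone class (y axis), for norepinephrine against HCl vehicle and UK14,304 against DMSO vehicle, with bars of 2 SE. Only the bar of Hist1h1c with UK14,304 (0.17 to 0.44) does not reach 0, and the bars of Hist1h1e, H1fx and Hist1h1d, with few counts, are the widest.

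The 63 genes below the filter held 2263 counts in all 18 libraries together, against 258960 on the members. The members thus took 99.1% of the counted reads on histone genes of these names, a share that the count filter itself favours. H1f0 alone held 232118 of the members' counts. Of the 63, 13 were at 0 counts in every library, 16 had 1 to 17 counts in all, and 34 had more. Of the 13, 10 share 89.8 to 100% of their 50-base windows with another gene, so that their reads could hardly be counted and the 0 sets no limit on their level. For the 3 others (0 to 23.8% shared), 0 of 445 M counts allows up to 0.00674 CPM (3 counts, counting error only). The 12 H3 genes together had 11 to 49 counts per library, and the leading one was Hist1h3d with a mean of 6.11. Besides Hist1h1b (mean count 9.06), Hist1h2ac (8.72) was just outside with 7 samples at 10 counts or more, and H1fx and Hist1h2bh were just inside with 12. Only Hist1h1b and Hist1h2ac entered the test. Hist1h1b had log2 fold changes of 1.03 ± 0.786 SE with norepinephrine and −0.69 ± 0.634 SE with UK14,304, and Hist1h2ac −0.13 and −0.07, with 0 calls. The sum of the 63 genes was 124 to 189 counts in the 7 libraries with over 1% ribosomal RNA and 89 to 144 in the 11 others, with r = 0.889 as above. By group it was 93 to 124 counts with HCl vehicle, 89 to 157 with norepinephrine, 96 to 189 with DMSO vehicle and 105 to 179 with UK14,304.

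Genes that act on histone mRNA and protein did not pass the test either. None of 17 tested genes of histone gene expression and mRNA processing passed with norepinephrine or UK14,304, without or with the block (median log2 fold change 0.02 and 0.03). Npat, the coactivator of histone gene transcription in S phase, was at 42.7 ± 0.937 CPM (SD, n = 4) with HCl vehicle, 47.7 ± 4.71 (n = 5) with norepinephrine, 43.9 ± 2.44 (n = 4) with DMSO vehicle and 48.1 ± 4.99 (n = 5) with UK14,304, with edgeR adjusted p of 0.713 and 0.498. Slbp, whose protein binds the stem-loop shown above, stayed between 73.3 and 85.2 CPM in all libraries (log2 −0.01 and −0.05). Of 20 histone chaperones, 0 passed (median 0.00 and 0.03), and of 30 S phase genes, 0 passed (median 0.01 in both). Without the block, 0% of all genes passed with norepinephrine and 0.0394% with UK14,304, and with it 0.105% and 1.22%. At such shares, 0 calls in lists of this size say little about the genes listed. Mki67, a marker of cycling cells, was at 764 ± 20.8 CPM (SD, n = 4) with DMSO vehicle and 864 ± 50.2 (n = 5) with UK14,304, without overlap (734 to 778 and 795 to 913), and with edgeR adjusted p of 0.346 without and 0.0893 with the block. Such a separation held in this direction for 1.72% of all genes (3.51% in either direction). With HCl vehicle and norepinephrine Mki67 was at 768 ± 64.1 (n = 4) and 823 ± 43.9 CPM (n = 5), overlapping.

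The 9 genes listed as replication-independent variants also gave 0 calls (median −0.01 and −0.02), beside the same low shares of all genes. H3f3b, a gene of H3.3, was at 240 to 300 CPM in all libraries. H2afz, the gene of H2A.Z, was at 5.50 ± 0.320 CPM (SD, n = 4) with HCl vehicle, 9.18 ± 2.31 (n = 5) with norepinephrine, 7.02 ± 1.85 (n = 4) with DMSO vehicle and 9.49 ± 3.72 (n = 5) with UK14,304. Its norepinephrine samples started at 5.84 CPM and its HCl samples ended at 5.85, so that they overlapped narrowly, and its edgeR adjusted p was 0.713 and 0.499. Of the RNAs without a poly(A) tail, Rn7sk was tested besides CT010467.1. It was at 27.1 ± 8.19 CPM (SD, n = 4) with DMSO vehicle and 15.6 ± 5.60 (n = 5) with UK14,304 (log2 −0.80, edgeR adjusted p = 0.408), and CT010467.1 had a log2 fold change of −1.43 in that comparison (adjusted p = 0.509).

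Markers of the cell types of the crypt and villus moved as follows beside these values. Lyz1, a Paneth cell enzyme, passed the test with the block, with log2 fold changes of −0.37 with norepinephrine (edgeR adjusted p = 0.0019) and −0.31 with UK14,304 (0.0031). With UK14,304 and the block, so did Ang4, another Paneth cell product (log2 −0.27, edgeR adjusted p = 0.0220), and Agr2 of goblet cells (log2 −0.16, edgeR adjusted p = 0.0324). Without the block, none of these passed. Lyz1 then had an edgeR adjusted p of 0.713 with norepinephrine and 0.508 with UK14,304, and with UK14,304 Ang4 had 0.543 and Agr2 0.26. With norepinephrine and the block, the call on Lyz1 makes 1 of the 3 Paneth cell markers, against 0.105% of all genes called. With UK14,304 and the block, Lyz1, Ang4 and Agr2 make 2 of the 3 Paneth cell markers and 1 of the 3 goblet cell markers, against 1.22% of all genes called. The other goblet cell markers went both ways there, Muc2 at log2 0.11 (edgeR adjusted p = 0.499) and Tff3 at −0.23 (0.252). Defa24, the other Paneth cell marker, was at log2 −0.25 (edgeR adjusted p = 0.0978). The 3 stem cell markers Lgr5, Ascl2 and Olfm4, the 3 enterocyte markers Alpi, Apoa1 and Fabp1 and the 3 epithelial markers gave 0 calls in either setting. The part of cell type in the value of Hist1h1c was not tested.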

How the data were processed

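Reads (single, 50 bp) were aligned by the authors to GRCm38 with STAR 2.7.3 (version from the submitters' processing notes). The authors counted reads per gene with featureCounts (2.0.1 and Ensembl 102 in the file header; the methods name Subread 1.6.4), and deposited raw counts per gene, without normalization. Strand was not used. Symbols were found for 55141 of 55487 genes (GENCODE M21), and 2 more loci that match by a newer name alone were left out. The members, the lists and the rules were chosen with earlier results of these data known. CPM values are on TMM-scaled library sizes.

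Counts were tested in R 4.3.3 with edgeR 4.0.16 (filterByExpr, TMM, robust quasi-likelihood fit of the 4 groups over 18 samples, 15247 genes, Benjamini-Hochberg adjustment). The SE of a fold change was derived from the F statistic. The named genes were the 2 highest members per class by CPM per kb, the 3 largest changes each way per agonist, all calls, and fixed genes of the other lists. The numbers m1 to m5 in the sample names, read as mice, were taken to pair the samples. Deviations of same-numbered samples from the group means correlated at 0.119 to 0.431 for norepinephrine and 0.155 to 0.520 for UK14,304. Differently numbered samples were not compared, so these correlations do not show that the numbers mark mice. Alternatives were DESeq2 1.42.0, its size factors, other filters, the block, the own vehicle only, GC or length trends removed, the ribosomal share as covariate and leaving out each sample. Leaving out samples with the block, and the libraries with up to 1% ribosomal RNA alone, were added after seeing the data. On simulated data for UK14,304 against DMSO vehicle (15247 genes, with mouse differences and the block), 92.6% of genes changed by 0.5 on the log2 scale were called at a mean count of 100 or more and 9.38% below that. Without the block, 0% were called at either level. The simulated mouse differences had a set size for all genes, not estimated from these data. In simulated data without them, the fit without the block called 95.6% at a mean count of 100 or more and 9.38% below. The spread of the simulated counts came from the fit with the block, so this 95.6% leaves out any spread between mice. The labels do not say whether cultures of 1 mouse were kept apart, so p-values measure the spread between these samples.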

Additional observations from a re-analysis of the deposited data

Results flagged for a closer look

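Hist1h1c was set apart because, in the 4 mice with both samples, every mouse was higher with UK14,304 than with DMSO and lower with norepinephrine than with HCl. The difference between these effects was 0.40 on the log2 scale, and its test did not pass among all genes (edgeR adjusted p = 1.0). Over the 49 alternatives tried it stayed between 0.35 and 0.56, with the lowest adjusted p at 0.0793, and none passed.

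Of 52 groups checked for a sample far from the others, 3 had one, and chance would give about 2.6. With HCl vehicle, mouse 3 had 488 CPM of H1f0, below the 536 to 540 CPM of the others, and therefore also the lowest summed CPM of the members (549). With UK14,304, mouse 3 had 1.20 CPM of Hist1h1d, above the 0.645 to 0.804 CPM of the others.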

How the results depend on the processing

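The number of members called was 0 in each comparison, and remained so in 138 of 157 alternatives. The others were all for UK14,304, with 1 member, Hist1h1c: with the replicate block, DESeq2 without and with it, the GC trend removed without and with it, and, each with the block, the length trend removed, the own vehicle only, and the ribosomal covariate. Leaving out 1 sample, the count was 0 to 1. Hist1h1c was 0.23 to 0.41 with UK14,304 in all alternatives.

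No fold change of another gene passed, and these changed sign. With the ribosomal covariate (without, with the block), Hist1h1e with UK14,304 became 0.49 and 0.67 and Hist1h1d 0.54 and 0.56, and their differences between the agonist effects 0.48 and 0.61, and 0.49 and 0.55. In the libraries with up to 1% ribosomal RNA, chosen after seeing the data (same order, 1 DMSO sample), Hist1h1e was 1.16 and 0.78, Hist1h1d 1.51 and 1.16, their differences 0.93 and 0.51, and 1.87 and 1.53. There H1fx was −0.18 and −0.11 with UK14,304, −0.09 and −0.08 with norepinephrine. Hist1h1d was −0.36 and −0.37, Hist1h2be −0.11 and −0.12 and Hist1h2bh −0.04 and −0.05 with norepinephrine, and with UK14,304 Hist1h2bh was −0.22 and −0.73, Hist2h2be −0.05 (no block) and Hist1h2bc 0.05 (block). With the own vehicle only and the block, Hist1h1d was −0.07 with norepinephrine and Hist1h2bh −0.12 with UK14,304. Hist1h2bh with UK14,304 was also −0.05 with the block, −0.04 with DESeq2 and the block, −0.04 and −0.11 with the GC trend removed, −0.01 with the length trend removed and the block, −0.06 and −0.17 with the covariate. With the GC trend removed H1f0 was 0.03 and 0.03 with norepinephrine and 0.01 and 0.00 with UK14,304, Hist2h2be −0.03 (no block) and Hist1h2bh 0.00 (block) with norepinephrine. With the length trend removed and the block, H1f0 was 0.02 with norepinephrine and 0.00 with UK14,304, and Hist1h2bc 0.01 with UK14,304. H1f0 was 0.00 with norepinephrine under both other filters.

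Leaving out 1 sample, without or (added after seeing the data) with the block, gave −0.04 to 0.02 for H1f0, −0.23 to 1.04 for Hist1h1e, −0.23 to 0.54 for Hist1h1d, −0.03 to 0.09 for Hist2h2be, 0.00 to 0.30 for Hist1h2be and −0.11 to 0.27 for Hist1h2bh with norepinephrine, and −0.72 to 0.20 for Hist1h1d, −0.95 to 0.13 for Hist1h1e, −0.35 to 0.24 for Hist1h2bh and −0.09 to 0.02 for Hist1h2bc with UK14,304. The causes were not tested. On simulated data with mouse differences, changes of 0.5 on the log2 scale were missed at every depth without the block (0% called). With it they were mostly missed below a mean count of 100 (9.38% called), where 7 of the 11 members lie. The simulated mouse differences had a set size for all genes, not estimated from these data. Without them, the fit without the block called 95.6% of such changes at a mean count of 100 or more and 9.38% below, with no spread between mice in the simulated counts.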

Other observations

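The genes whose log2 CPM followed the members' summed level most closely over the 18 libraries, which share 5 mice, were Gstt1, a glutathione transferase (r = 0.934), Cbr3, a carbonyl reductase (r = 0.928), and Ank, a transmembrane protein of pyrophosphate export (r = 0.926). The sum is mostly H1f0, and their r with H1f0 alone was 0.948, 0.911 and 0.946. Between members, r ranged from −0.612 (H1f0 and Hist2h2be) to 0.559 (Hist1h1d and Hist1h1e), both of the latter being counted more in the libraries with more ribosomal RNA. These are descriptions of these libraries, with no test.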
